A study of Homo sapiens with 27 samples.

Results

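The 10 genes described here are ATF4, ATF5, CEBPG, DDIT3, TRIB3, CHAC1, ASNS, DDIT4, SESN2 and PPP1R15A, a set of genes of the integrated stress response. They were taken by gene symbol, with no threshold on their values, by a choice made with earlier results of these data known, and all 10 were found among the 57905 gene identifiers of the table of U937, an established human myeloid leukemia cell line. RNA-seq libraries were made from control U937 cells without matrine, from cells given 0.8 mg/ml of the plant alkaloid matrine for 30 min, and from cells given the same dose for 24 h, with 3 libraries in each group. The cells of all groups were grown in the same serum-containing medium, the study names water as the vehicle control of matrine, and the same 3 control libraries served both times. The culture time of the control is not given in the sources used here, so time in culture and 24 h of treatment cannot be told apart. Libraries of the other 2 cell lines of the series, HL-60 and K562, are not analysed here.

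In the integrated stress response, kinases that sense amino acid shortage, unfolded proteins in the endoplasmic reticulum, viral RNA or heme loss phosphorylate the initiation factor eIF2, which lowers protein synthesis. ATF4 mRNA has upstream reading frames that let its translation rise under these conditions, so the mRNA level alone does not give the ATF4 protein level. ATF4 protein is a bZIP transcription factor that pairs with C/EBP proteins and binds C/EBP-ATF response elements at genes for amino acid supply, stress signalling and cell death. In leukemia cells this response is known to be started by nutrient limitation and by several drugs.

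The libraries held 17314931 to 21930018 counted reads each. Markers of a monocytic line were present: 6 of 8 had a mean of more than 1 FPKM (read fragments scaled to gene length and library size) in the control, and their summed level was 421 to 426 FPKM in the control, 416 to 441 FPKM at 30 min and 385 to 392 FPKM at 24 h. CSF1R and MPO were the 2 below that level. MPO went from a mean of 0.313 to 1.84 FPKM at 24 h and was the only marker of the list called higher then, but it was tested only through its 24 h level. The markers went both ways at 24 h: LYZ went from 292.3 to 243.6 FPKM and SPI1 from 67.6 to 56.0 FPKM, while CD4 went from 28.6 to 43.7 FPKM and PTPRC from 16.4 to 24.2 FPKM. LYZ, SPI1, CD4 and PTPRC were not called at the thresholds used below. The part of these marker levels in the results was not tested. Among erythroid markers, HBG1, HBE1 and HBZ were at 0 in every control library, and the list summed to 2.40 to 4.12 FPKM over all libraries, nearly all of it KLF1. Among markers of T, B and non-blood cells, CD3E, MS4A1, EPCAM and ALB were at 0 in the control. These are bulk libraries, so fewer cells that express a gene and less RNA of that gene per cell cannot be told apart.

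Short stretches of DNA are shown for the genes whose promoters held a response element, because ATF4 is known to act through such letters. RefSeq promoter windows (GRCh38.p14, from 250 bases before to 50 after an annotated start) were found for all 10 genes, 18 windows in all, and were searched on both strands for TGATGNAA, the C/EBP-ATF response element. It was present in the windows of ASNS, CHAC1 and CEBPG, or 3 of 10 genes, against 4.46% of 27305 genes with a window. A gene counted when any of its windows matched, and genes differ in their number of windows. Counted by window, it was in 3 of 18, against 3.62% of all 35116 windows. A further search for the cAMP response element TGACGTCA, which ATF and CREB proteins bind, was added after the windows had been read and matched PPP1R15A alone of the 10, against 2.25% of all genes. The matches are in capitals, on the strand of the gene and 5′ to 3′. Those of ASNS, CHAC1 and PPP1R15A also lie in exons of longer transcripts in GENCODE release 44.
ASNS (chr7:97872458-97872487, minus strand): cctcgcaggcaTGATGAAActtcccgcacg
CHAC1 (chr15:40953251-40953280, plus strand): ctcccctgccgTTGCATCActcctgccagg
CEBPG (chr19:33374060-33374089, plus strand): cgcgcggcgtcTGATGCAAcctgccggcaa
PPP1R15A (chr19:48872352-48872381, plus strand): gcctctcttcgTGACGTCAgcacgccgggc

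Counted from the start, the element began at position -68 in ASNS, at -209 in CHAC1, where it lay on the opposite strand, and at -42 from the later of the RefSeq starts in CEBPG. The E-box CACGTG, to which MYC and related factors bind, was found in ATF4 alone of the 10 genes, against 8.77% of all genes, and the ER stress response element in 0 of 10, against 0.0916%. None of the motifs overlapped another. DDIT4 and SESN2 are shown next, from 250 to 11 bases before the start, because they are among the genes with the largest rises described below and their windows held none of the searched motifs.
DDIT4 (chr10:72273674-72273913, plus strand): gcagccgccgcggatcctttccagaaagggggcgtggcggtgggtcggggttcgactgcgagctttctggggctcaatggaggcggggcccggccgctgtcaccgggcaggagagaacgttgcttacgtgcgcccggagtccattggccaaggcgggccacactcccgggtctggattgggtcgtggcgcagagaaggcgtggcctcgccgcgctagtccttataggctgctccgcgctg
SESN2 (chr1:28259268-28259507, plus strand): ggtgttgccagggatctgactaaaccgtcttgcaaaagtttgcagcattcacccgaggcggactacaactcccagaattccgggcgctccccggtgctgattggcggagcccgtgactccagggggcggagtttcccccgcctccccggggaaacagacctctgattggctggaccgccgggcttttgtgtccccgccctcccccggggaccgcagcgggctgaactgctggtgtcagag

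After 24 h of matrine, 6 of the 9 tested genes were up-regulated, DDIT4, DDIT3, SESN2, ASNS, TRIB3 and ATF5, and 0 were down-regulated. DDIT4 mRNA rose 13.4-fold, DDIT3 5.13-fold and SESN2 3.54-fold, while ATF4 itself was 1.30-fold above the control. A gene was tested when its mean over the 6 libraries compared was above 1 FPKM, which left out CHAC1, and was called up- or down-regulated at a Benjamini-Hochberg adjusted p below 0.05 from edgeR's quasi-likelihood test and a fold change of at least 1.5. Among all 12035 genes tested at 24 h, 14.7% were called higher and 11.6% lower, 26.4% in all. The median of the 9 log2 fold changes was 0.98, against -0.01 over all tested genes, and each of the 9 had a mean above 1 FPKM in the control libraries alone, so none passed the filter only through its level at 24 h. In all 10 genes, CHAC1 included, every 24 h library lay above every control library in scaled counts, an order seen in 38.8% of all tested genes, while 31.2% had the opposite order. With 3 libraries against 3, a two-sided exact permutation test of a single gene cannot go below p = 0.1.

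**Figure D1:**
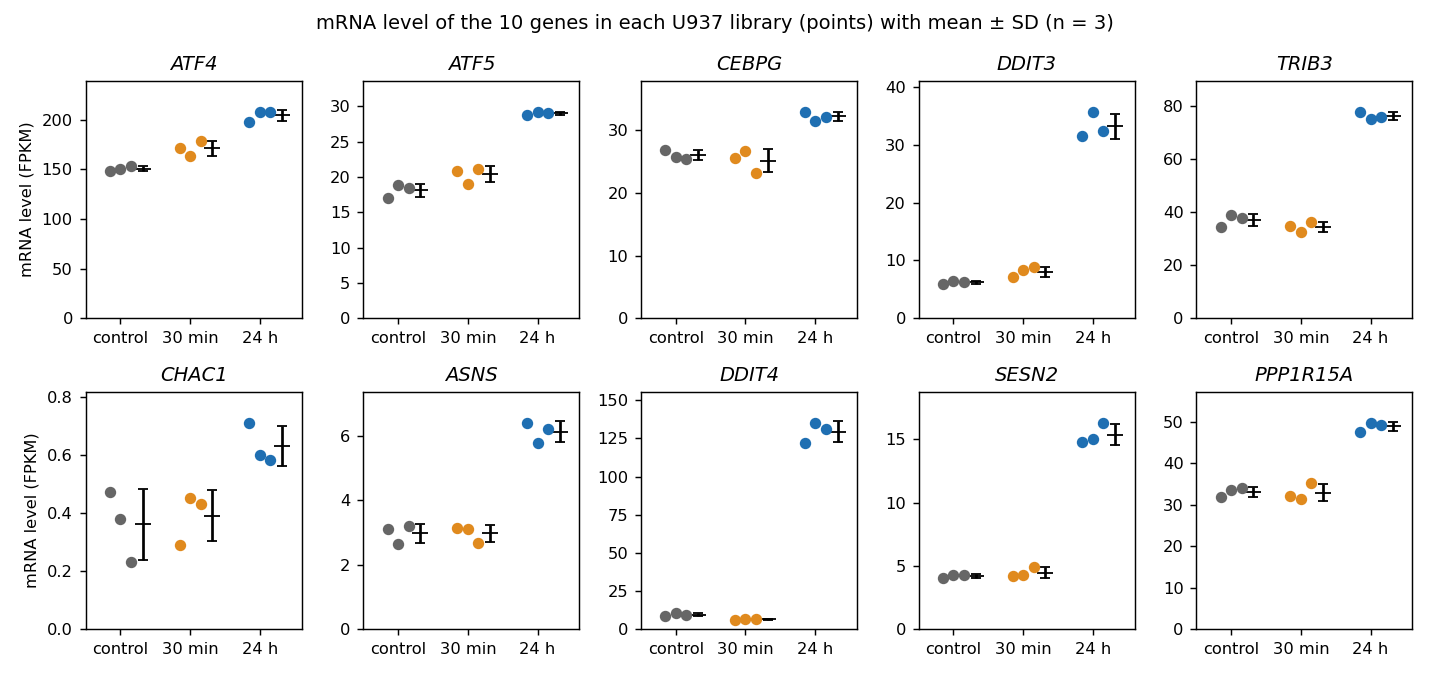
mRNA level in FPKM (vertical axis, linear from 0, its own scale in each panel) of the 10 genes in the control, 30 min and 24 h libraries. Each point is 1 library, and the black mark beside each group is the mean with its SD (n = 3). The 24 h points lie above the control points in every panel, and by the widest margin in DDIT4, at 121.7 to 135.3 FPKM against 8.34 to 10.4 FPKM.

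The transcription factors of the set differed widely in how far they moved. ATF4, the factor for which the response is named, had the highest level of the 10 genes in every group. Its mRNA level was 148.5, 150.1 and 153.6 FPKM in the control, 171.9, 163.0 and 178.4 FPKM at 30 min, and 197.9, 207.7 and 207.8 FPKM at 24 h. The groups did not overlap, and each later group lay above the one before it. Against the control the log2 fold change of ATF4 was 0.20 at 30 min (standard error 0.051, adjusted p = 0.06) and 0.38 at 24 h (standard error 0.052, adjusted p = 2e-06), so the 24 h value passed the adjusted p but not the 1.5-fold threshold. Of all genes tested at 24 h, 24.4% had a higher log2 fold change than ATF4.

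ATF5, a related bZIP factor whose translation is controlled in the same manner as that of ATF4, was read at 17.04, 18.9 and 18.4 FPKM in the control, 20.9, 19.1 and 21.1 FPKM at 30 min, and 28.8, 29.2 and 29.1 FPKM at 24 h. The 24 h libraries stood well apart from the rest and varied little (SD 0.216 FPKM, n = 3). Its log2 fold change was 0.62 at 24 h (standard error 0.067, adjusted p = 8.5e-08), just above the 0.58 of a 1.5-fold change, and 0.18 at 30 min (adjusted p = 0.25). The call at 24 h was lost on the fold change without replicate 1 of the control, at 0.57, and without a filter on low expression, also at 0.57. In GENCODE release 44, 565 of the 2892 exon bases of ATF5 are shared with NUP62 and 75 with IL4I1, both on the opposite strand, and the strand setting of the counting is not given in the sources used here. At 24 h NUP62 had a log2 fold change of -0.29 and IL4I1 one of 1.40, from 0.833 to 2.29 FPKM, so that IL4I1 was tested only through its 24 h level. The part of these overlaps in the ATF5 value was not tested.

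CEBPG, a C/EBP protein that pairs with ATF4, was read at 26.9, 25.8 and 25.4 FPKM in the control, 25.6, 26.8 and 23.2 FPKM at 30 min, and 32.9, 31.5 and 32.2 FPKM at 24 h. The control and 30 min libraries overlapped, and the 24 h libraries lay above both. With a log2 ratio to the control of 0.24 at 24 h (standard error 0.062, adjusted p = 0.0017), CEBPG had the smallest difference of the 9 tested genes. At 30 min its value was -0.04 (adjusted p = 0.89).

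DDIT3, which encodes CHOP, the bZIP factor linked to cell death under prolonged stress, moved much further. Its level was 5.96, 6.40 and 6.23 FPKM in the control, 7.12, 8.26 and 8.78 FPKM at 30 min, and 31.6, 35.7 and 32.3 FPKM at 24 h, from 127 to 146 reads per control library and 764 to 856 reads at 24 h. The 30 min libraries lay slightly above the control and the 24 h libraries far above both. The log2 fold change was 2.36 at 24 h (standard error 0.10, adjusted p = 8.3e-14), with 0.706% of all tested genes above it, and 0.39 at 30 min (standard error 0.11, adjusted p = 0.096). Of its 1307 exon bases, 355 are shared with MARS1 and 58 with MBD6, both on the opposite strand. MARS1 was at 0.07 on the log2 scale at 24 h (adjusted p = 0.23) and MBD6 one of 0.88 (adjusted p = 3.4e-10), both below the 2.36 of DDIT3, and the part of the overlaps was not tested.

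Among the effectors and targets, DDIT4 had the largest change. It encodes REDD1, an inhibitor of mTORC1 signalling that is also induced by hypoxia and glucocorticoids. Its level was 8.34, 10.4 and 9.04 FPKM in the control, 6.07, 6.29 and 6.55 FPKM at 30 min, and 121.7, 135.3 and 130.9 FPKM at 24 h. The 30 min libraries were therefore all below the control, and the 24 h libraries all above it. At 24 h the log2 fold change was 3.74 (standard error 0.080, adjusted p = 9.1e-19), which ranked 12 of 12035 tested genes from the top. At 30 min it was -0.54 (standard error 0.091, adjusted p = 0.0014), a level 1.46-fold lower and so under the 1.5-fold threshold. Without replicate 1 of the control the 30 min value was -0.60 (adjusted p = 0.0012) and passed both thresholds.

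SESN2, a sestrin that restrains mTORC1 when leucine is short, was read at 4.01, 4.25 and 4.25 FPKM in the control, 4.20, 4.26 and 4.93 FPKM at 30 min, and 14.8, 15.02 and 16.3 FPKM at 24 h. Early libraries overlapped with the control and the 24 h libraries did not. The log2 fold change was 1.82 at 24 h (standard error 0.088, adjusted p = 5e-13) and 0.11 at 30 min (adjusted p = 0.75).

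TRIB3, a pseudokinase that is induced by ATF4 and CHOP and in turn binds ATF4, was read at 34.4, 38.7 and 37.7 FPKM in the control, 34.6, 32.5 and 36.2 FPKM at 30 min, and 77.6, 75.0 and 75.5 FPKM at 24 h. It was the most abundant of the targets in the control and rose 1.97-fold at 24 h, with a log2 ratio to the control of 0.98 (standard error 0.061, adjusted p = 2.4e-11). At 30 min it was -0.09 (adjusted p = 0.66), with overlapping libraries.

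ASNS, the enzyme that makes asparagine from aspartate, was read at 3.11, 2.63 and 3.19 FPKM in the control, 3.15, 3.12 and 2.67 FPKM at 30 min, and 6.42, 5.78 and 6.21 FPKM at 24 h. The 24 h libraries had about the same distance from the control as in TRIB3: the log2 fold change was 0.98 (standard error 0.10, adjusted p = 3.6e-08). At 30 min the value was 0.02 (adjusted p = 0.98), and its sign depended on which library was left out.

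PPP1R15A, also called GADD34, brings a phosphatase to eIF2 and so ends the response. It was read at 31.9, 33.5 and 34.0 FPKM in the control, 32.1, 31.5 and 35.4 FPKM at 30 min, and 47.6, 49.9 and 49.4 FPKM at 24 h. The 24 h libraries again lay above the rest, with a log2 ratio to the control of 0.50 (standard error 0.060, adjusted p = 3.2e-07), a 1.42-fold level under the 1.5-fold threshold. At 30 min it was 0.01 (adjusted p = 0.99).

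CHAC1, an enzyme that degrades glutathione and is among the best known ATF4 targets, was barely detected. Its level was 0.47, 0.38 and 0.23 FPKM in the control, 0.29, 0.45 and 0.43 FPKM at 30 min, and 0.71, 0.60 and 0.58 FPKM at 24 h, from 8 to 30 reads per library. Its 24 h libraries were above all others, but with so few reads the fit without a filter gave a log2 fold change of 0.68 with a standard error of 0.37 (adjusted p = 0.18), and a change was not detectable at this depth.

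**Figure D2:**
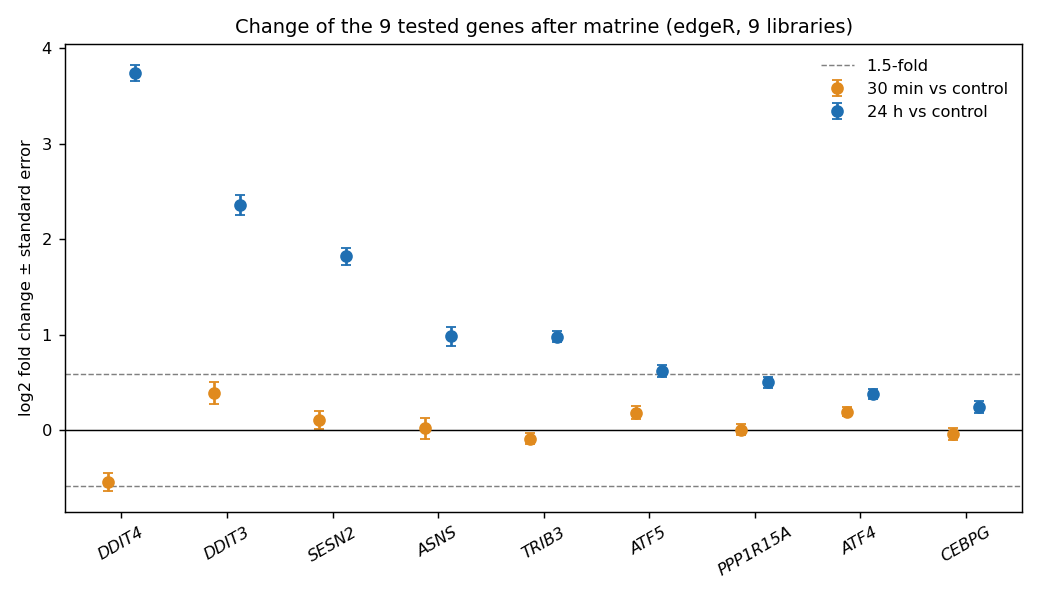
log2 fold change against the control with its standard error (vertical axis) for the 9 tested genes, ordered by the 24 h value, at 30 min (orange) and 24 h (blue). Dashed lines mark a 1.5-fold change. At 24 h the points run from 0.24 for CEBPG to 3.74 for DDIT4, and at 30 min from -0.54 for DDIT4 to 0.39 for DDIT3.

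The order of the levels changed with treatment. In the control it ran from ATF4 through TRIB3, PPP1R15A, CEBPG, ATF5, DDIT4, DDIT3, SESN2 and ASNS to CHAC1, with no overlap between the libraries of neighbours. At 30 min DDIT3 and DDIT4 had exchanged places, and TRIB3 and PPP1R15A, next to each other, overlapped. At 24 h DDIT4 had moved from the sixth place to the second, below ATF4 alone, and DDIT3 from the seventh to the fifth, where its libraries overlapped with those of CEBPG.

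The early response was small in comparison. At 30 min 0 of the 9 tested genes were called in either direction, and of all 11587 tested genes 0.0949% were called higher and 0.544% lower, 0.639% in all. DDIT4 had an adjusted p below 0.05. So did ATF4 with DESeq2 (adjusted p = 0.011), without a filter on low expression (adjusted p = 0.036 with edgeR) and without replicate 2 of 30 min (adjusted p = 0.011 with edgeR), and its adjusted p over all alternatives ran from 0.011 to 0.22. At an unadjusted p below 0.05 from edgeR, 3 of the 9 genes, ATF4, ATF5 and DDIT3, were above the control and 1, DDIT4, was below it. The share of all tested genes at this unadjusted p was not computed, so these counts are not a result about the set. At an adjusted p below 0.05 with no fold change threshold, 34 of all 11587 tested genes were higher and 154 lower. With DESeq2, 0 of the 9 genes passed both the adjusted p and the 1.5-fold threshold at this time. All 30 min libraries lay above all controls in ATF4, ATF5 and DDIT3, an order seen in 4.93% of tested genes, and below them in DDIT4, an order seen in 9.04%.

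The difference between the times was tested directly, as 24 h against 30 min. DDIT3, TRIB3, ASNS, DDIT4 and SESN2 were up-regulated between them, 5 of the 9 tested genes, and 0 were down-regulated, where 15.7% of all 11981 tested genes were called higher and 11.3% lower, 27% in all. The log2 difference was 4.29 for DDIT4 (standard error 0.083, adjusted p = 3e-19), 1.97 for DDIT3 (standard error 0.097, adjusted p = 7.1e-13), 1.71 for SESN2 (adjusted p = 1e-12), 1.07 for TRIB3 (adjusted p = 6.6e-12) and 0.97 for ASNS (adjusted p = 4e-08). The values of ATF4, at 0.19, CEBPG, at 0.28, ATF5, at 0.44, and PPP1R15A, at 0.50, had an adjusted p below 0.05 but stayed under 1.5-fold. Without a filter on low expression the ATF4 value was 0.12, with an adjusted p of 0.1 from edgeR. In all 10 genes the 24 h libraries lay above the 30 min libraries, an order seen in 40.1% of tested genes, with the opposite order in 28.7%.

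The next list held genes upstream of ATF4. Of 22 genes for the eIF2 kinases, eIF2, eIF2B and their regulators, all tested, 1 was up-regulated and 3 were down-regulated at 24 h, where 14.7% of all genes were called higher and 11.6% lower, with a median log2 fold change of -0.17. At an unadjusted p below 0.05, 4 were above the control and 11 below it. The share of all genes at this unadjusted p was not computed, so these counts are not a result about the list. Under an unlike threshold, an adjusted p below 0.05 with no fold change threshold, 3688 of all 12035 tested genes were higher and 3939 lower. The 1 up-regulated gene of the list was EIF2AK3, which encodes PERK, the kinase that senses unfolded proteins in the endoplasmic reticulum. Its level went from 2.61 ± 0.136 FPKM (SD, n = 3) in the control to 4.65 ± 0.254 FPKM (SD, n = 3) at 24 h, a log2 fold change of 0.77 (adjusted p = 2.6e-07). The down-regulated genes were EIF2B3 at -1.31 and EIF2B2 at -0.67, subunits of the exchange factor eIF2B, and EIF2S1 at -0.61, the eIF2 subunit that is phosphorylated. The other kinase genes were not called, with -0.02 for EIF2AK1, -0.15 for EIF2AK2 and -0.12 for EIF2AK4. At 30 min 0 of the 22 genes were called by edgeR, where 0.639% of all tested genes were called in either direction. A count of 0 therefore does not set this list apart. At an unadjusted p below 0.05, 1 gene, DELE1, was below the control at that time.

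Related bZIP genes also went both ways. Of 16 listed, 15 were tested at 24 h, 3 were up-regulated and 1 was down-regulated, and the median log2 fold change was 0.12. Over all genes tested at 24 h, 14.7% were called higher and 11.6% lower. ATF3 was tested only through its 24 h level, and without it 2 of 14 were up-regulated, with a median of 0.11. ATF3, a repressor induced by ATF4, rose from 0.853 ± 0.170 FPKM (SD, n = 3) to 2.46 ± 0.223 FPKM (SD, n = 3), a log2 fold change of 1.45 (adjusted p = 5.9e-07). JDP2 rose by 0.69, CREB3 was at 0.60, also called, and BATF3 fell by 1.31 on the log2 scale. CEBPB, a partner of ATF4 and a regulator of myeloid genes, was the only gene of this list called at 30 min: its level was 40.8 ± 6.29 FPKM (SD, n = 3) in the control, 24.0 ± 1.08 FPKM (SD, n = 3) at 30 min and 45.7 ± 3.61 FPKM (SD, n = 3) at 24 h. Its log2 fold change was -0.75 at 30 min (adjusted p = 3.6e-05) and 0.10 at 24 h (adjusted p = 0.34), and between the times it rose by 0.86 (adjusted p = 8.1e-08). Of all genes tested at 30 min, 0.639% were called.

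Paralogs of the 10 genes were read as well. Of 8 listed, 6 were tested at 24 h, 0 were called higher (by edgeR, with SESN1 alone above the control at an unadjusted p below 0.05) and 2 were called lower, and the median was -0.33 on the log2 scale. Since 14.7% of all genes were called higher, a count of 0 of 6 does not set the paralogs apart, and 11.6% were called lower. At 24 h against 30 min 1 of 6, SESN1, was up-regulated (0.68 on the log2 scale, adjusted p = 0.00016) and 3 were down-regulated. Over all genes 15.7% were called higher and 11.3% lower between these times. CHAC2, the constitutive relative of CHAC1, fell from 14.6 ± 0.575 FPKM (SD, n = 3) to 7.53 ± 0.0208 FPKM (SD, n = 3), a log2 fold change of -1.02 (adjusted p = 7.6e-08). TRIB2 fell by 0.71 on the log2 scale. SESN1 was at 0.47 (adjusted p = 0.0042), PPP1R15B at 0.09 (adjusted p = 0.27) and TRIB1 at -0.45 (adjusted p = 0.014), none of them past 1.5-fold.

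Other genes known as ATF4 targets were read by function. Of 18 stress genes, 14 were tested at 24 h, 11 were up-regulated and 0 were down-regulated, with EIF4EBP1 below the control at an unadjusted p below 0.05. Over all genes tested at 24 h, 14.7% were called higher and 11.6% lower. The median log2 fold change of the 14 stress genes was 0.97. ADM2, ATF3 and KLHL24 passed the filter only through their 24 h level, and without them 8 of 11 were up-regulated, with a median of 0.91. ATF3 and JDP2 were also in the list of related bZIP genes above, so their calls appear in both counts. CDKN1A, the cell cycle inhibitor p21 and also a target of p53, rose from 1.18 ± 0.186 FPKM (SD, n = 3) to 7.19 ± 0.648 FPKM (SD, n = 3), a log2 fold change of 2.55 (adjusted p = 4.2e-12). ADM2, a peptide hormone, rose from 0.767 ± 0.0416 FPKM (SD, n = 3) to 2.82 ± 0.234 FPKM (SD, n = 3), a log2 fold change of 1.82 (adjusted p = 1.4e-09). The 3 genes not called were EIF4EBP1 at -0.34, ERO1A at -0.04 and TNFRSF10B at 0.02.

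Genes of amino acid supply and tRNA charging formed 3 further lists, to be read beside the 14.7% of all genes called higher and 11.6% called lower at 24 h. Of 10 tested genes of amino acid synthesis, 3 were up-regulated and 1 was down-regulated, with a median of 0.14. PHGDH, which opens serine synthesis, rose by 0.84 on the log2 scale (adjusted p = 3.4e-10) and CTH, which makes cysteine, by 0.68 (adjusted p = 8.6e-05), while ALDH18A1, of proline synthesis, fell by 0.69 on the log2 scale. Of 9 tested amino acid transporters, SLC38A2 at 0.77 and SLC1A4 at 0.64 were up-regulated and 0 were down-regulated, with a median of -0.01. At an unadjusted p below 0.05 alone, SLC7A5, at -0.58, SLC7A1 and SLC36A4 were also below the control. Of 14 genes for tRNA synthetases and tRNA export, WARS1 rose by 0.95 (adjusted p = 8.9e-12), VARS1 at -0.95 and LARS1 at -0.59 were down-regulated, and the median was -0.02. At 30 min 0 genes of these 3 lists were called by edgeR. Since 0.639% of all tested genes were called then, this does not set the lists apart. At an unadjusted p below 0.05, 0 genes of synthesis, 0 synthetases and 3 transporters, SLC1A5, SLC38A2 and SLC3A2, were above the control at that time. No share over all genes was computed at this p, so these counts do not set the transporters apart.

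The other arms of the unfolded protein response were read in 14 genes of the IRE1 and ATF6 arms, all tested. At 24 h 2 were up-regulated and 1 was down-regulated, where 14.7% of all genes were called higher and 11.6% lower. The median log2 fold change of the list was 0.03. HSPA5, the main chaperone of the endoplasmic reticulum, was at -0.09 (adjusted p = 0.097). At an unadjusted p below 0.05 from edgeR, 5 genes of the list were above the control and 5 below it at 24 h. CALR and HSP90B1 were among those below. No share over all genes was computed at this p. DNAJB9, a co-chaperone controlled by XBP1, was the only gene of the list called at 30 min and was higher at both times: its level was 1.92 ± 0.353 FPKM (SD, n = 3) in the control, 3.26 ± 0.410 FPKM (SD, n = 3) at 30 min and 4.51 ± 0.255 FPKM (SD, n = 3) at 24 h, with log2 fold changes of 0.78 (adjusted p = 0.0044) and 1.17 (adjusted p = 4.4e-07). SYVN1 was up-regulated, at 0.60, and SDF2L1 down-regulated, at -0.59.

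**Figure D3:**
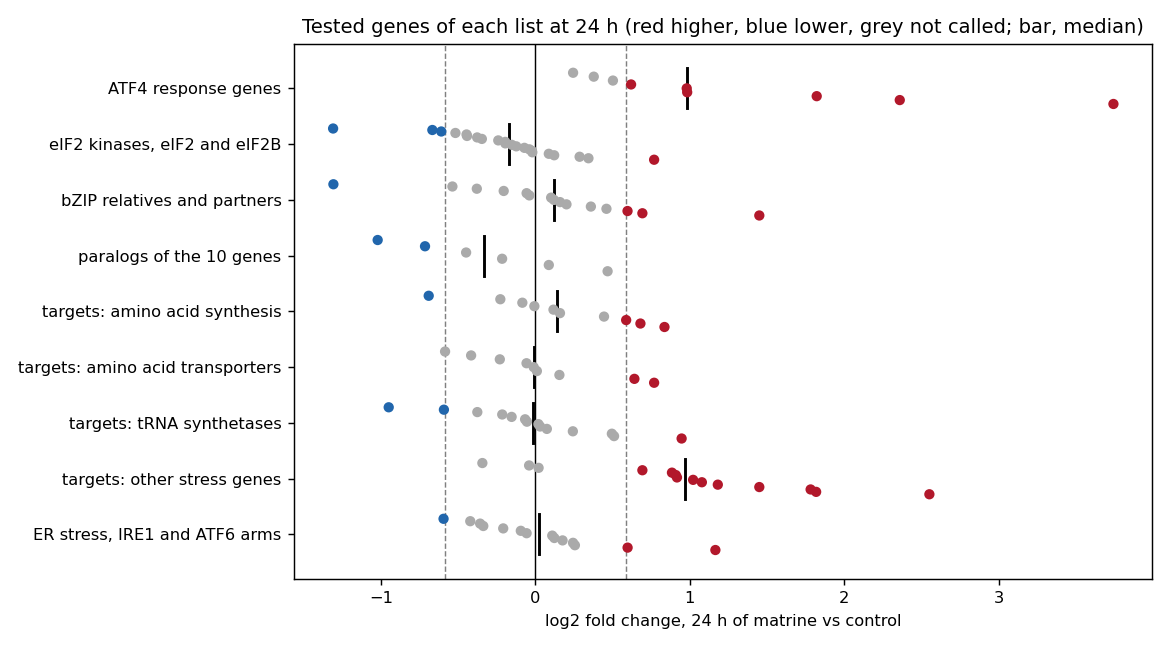
log2 fold change at 24 h against the control (horizontal axis) of each tested gene, 1 point per gene, by list. Red points were called higher, blue lower and grey not called, the black bar is the median of the list, and dashed lines mark a 1.5-fold change. The medians are 0.98 for the genes described here and 0.97 for the other stress genes (0.91 without the 3 that passed the filter only through their 24 h level), and lie between -0.33 and 0.14 for the remaining lists drawn. Marker lists are not drawn.

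Among the genes whose levels followed ATF4 most closely over the 9 libraries were FBRS, NXF1, SEC61A1 and a gene known by its identifier alone, ENSG00000254687. Pearson's r on log2 scaled counts was 0.984, 0.982, 0.976 and 0.975. The 9 libraries fall into 3 groups, so that r mostly reflects the differences between groups. Of the genes tested at 24 h, 259 had an r above 0.9 with ATF4, so a high r does not set these genes apart. FBRS, at a log2 fold change of 0.27 at 24 h, NXF1, at 0.37, and SEC61A1, at 0.21, were like ATF4 in that none reached 1.5-fold, while ENSG00000254687 was at 1.64.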

How the data were processed

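Matrine-treated and control U937 libraries, 3 per group and 9 of 27 in the series, were read from the deposited table. According to the submitters' processing notes, reads were trimmed with cutadapt 1.9.1, aligned with HISAT2 2.0.1 and counted per gene with HTSeq 0.6.1. The notes name GRCh37 as the genome and the paper names hg38, so no positions are given for the counted genes, and the coordinates printed are those of RefSeq promoter windows (GRCh38.p14) matched by symbol. The authors deposited raw counts per gene, which were tested, and FPKM values per gene, which gave the levels and decided which genes were tested. All 10 gene symbols were matched through GENCODE release 44, as were 51996 of 57905 identifiers. Columns of no known sample numbered 0.

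Counts of the tested genes were normalized with TMM and fitted in edgeR 4.0.16 (R 4.3.3) with a quasi-likelihood model of all 9 libraries. Genes had a mean above 1 FPKM over the 6 libraries compared, and calls needed at least 1.5-fold at an adjusted p below 0.05. Standard errors were computed as the absolute log2 fold change divided by the square root of F. Simulated counts with known changes were used to check the script. Replicate libraries varied beyond counting noise, and nothing in the labels says whether they came from separate cultures, so p-values measure the spread between these libraries. The 10 genes, the lists and the tests were chosen with earlier results of these data known. Named besides the 10 genes were, per list, the largest changes called at 24 h (up to 2 each way), every gene called at 30 min, and the 5 genes most correlated with ATF4, apart from items that are not reported here. Other genes were named after their values were seen. DESeq2 1.42.0 and other filters, scalings and libraries were alternatives. List counts over genes that pass on the control alone were added after seeing the data. Counts at an unadjusted p below 0.05 are given without the share over all genes, which was not computed.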

Additional observations from a re-analysis of the deposited data

Results flagged for a closer look

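The mRNA levels differed between the 24 h and the 30 min libraries in 5 of the 9 tested genes, by the edgeR test between them, where 15.7% of all tested genes were called higher at 24 h. Time in culture and time of treatment cannot be told apart. The log2 difference, 24 h minus 30 min, was 4.29 for DDIT4 (adjusted p = 3e-19), 1.97 for DDIT3 (adjusted p = 7.1e-13), 1.71 for SESN2 (adjusted p = 1e-12), 1.07 for TRIB3 (adjusted p = 6.6e-12) and 0.97 for ASNS (adjusted p = 4e-08). Each was higher in 3 of 3 libraries at 24 h than in all 3 at 30 min. This order was seen in 40.1% of all tested genes and the opposite order in 28.7%. DDIT4 stood below the control at 30 min, at a log2 fold change of -0.54, and above it at 24 h, at 3.74.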

How the results depend on the processing

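At 24 h the 9 tested genes kept a positive log2 fold change under every alternative run, from 0.19 to 0.325 for CEBPG and from 3.66 to 3.84 for DDIT4. With a fold change of at least 2, 3 of them were called higher at 24 h in place of 6. With no fold change threshold, 9 were called higher at 24 h, 9 in place of 5 at 24 h against 30 min, and 1 lower at 30 min (DDIT4). Leaving out each library gave 0 to 1 called lower at 30 min, the 1 being DDIT4 without replicate 1 of the control, and 5 to 6 called higher at 24 h. PPP1R15A at 24 h against 30 min was called, at 0.59, when only genes above 5 FPKM were tested. Values near 0 at 30 min changed sign. PPP1R15A went to -0.0071 with library totals alone, and with a library left out CEBPG ran from -0.059 to 0.023, PPP1R15A from -0.042 to 0.064 and ASNS from -0.056 to 0.096; the cause was not tested. Over all genes, higher and lower calls at 30 min were 11 and 63, against 28 and 95 without a filter, 7 and 40 above 5 FPKM, 1 and 23 at a fold change of 2, and 34 and 154 with no fold threshold; 18 were higher without replicate 2 of 30 min. At 24 h they were 1773 and 1401, against 890 and 771 above 5 FPKM, 751 and 375 at a fold change of 2, and 3688 and 3939 with no fold threshold. At 24 h against 30 min they were 1881 and 1354, against 959 and 732, 791 and 340, and 3981 and 3844.

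Replicate numbers did not pair the libraries: same-numbered libraries correlated at -0.26 to 0.13 in their deviations, others at -0.24 to 0.26, and 2 of 9 correlated best with their own number. With the replicate block, 6 genes of the set were called higher at 24 h, 5 at 24 h against 30 min and 0 at 30 min. Depth limits CHAC1, at 8 to 30 reads.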

Other observations

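Of the 18 listed stress genes, 4 were not tested at 24 h because of low expression; they are named after their values were seen. NUPR1, a stress-induced chromatin protein, was read at 0 to 0.04 FPKM in the control, at 0 in all 30 min libraries and at 0.63 to 1.66 FPKM at 24 h. GDF15, a secreted stress cytokine, was read at 0.02 to 0.03 FPKM in the control, 0 to 0.02 FPKM at 30 min and 0.57 to 0.71 FPKM at 24 h. FGF21 was listed at 0 in all 9 libraries, and STC2 was read at 0 to 0.02 FPKM in the control, 0 to 0.03 FPKM at 30 min and 0.02 FPKM in each 24 h library. The 24 h libraries of NUPR1 and GDF15 lay above all others. Among tested genes, 38.8% had this order against the control and 40.1% against 30 min.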
